A study of Mus musculus with 5 samples.

Results

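Gldn, Nfasc, Cldn19, Ncmap, Gjb1, Gjc3 and Drp2 encode proteins that Schwann cells place at the node of Ranvier, at the paranode or in noncompact myelin. They were chosen by symbol from the annotation of the array, and 7 of 7 symbols had a probe set, 1 each, among the 10361 probe sets of the table. RNA came from the sciatic nerves of C57Bl6N-background mouse pups at postnatal day 2, with 12 nerves pooled for each array. The wild-type (WT) pools were pools 1, 9 and 11 from Ebf2+/+ pups, and the knockout (KO) pools were pools 2 and 4 from Ebf2-/- pups. All pups came from crosses of heterozygous parents. The comparison asked which genes differ in nerves that lack Ebf2, one of the early B cell factors, which are transcription factors. How many animals or litters a pool holds, the sex of the pups and the nature of the Ebf2 allele are not stated in the labels. P-values therefore cover the spread from pool to pool alone, and some of that spread may be technical.

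A myelinating Schwann cell wraps an axon in compact myelin and keeps channels of cytoplasm at the edges of the wrap. Where neighbouring cells meet, Schwann cell microvilli face the axon at the node, and the paranodal loops attach to the axon beside it. The loops and the incisures of the sheath are stitched together by tight, adherens and gap junctions within the same cell. On the outer surface, dystroglycan complexes hold patches of the sheath to the basal lamina. These genes are known to be switched on as Schwann cells begin to make myelin, which in the mouse sciatic nerve is under way in the first days after birth.

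The levels below are log2 values from RMA, listed in the order of WT pools 1, 9 and 11 and of KO pools 2 and 4. A log2 fold change subtracts the WT mean from the KO mean and comes with its moderated standard error (SE). A gene was called at an adjusted p below 0.05, from limma with Benjamini-Hochberg adjustment over all 10361 probe sets. Cldn19, Gldn and Ncmap fell in the KO pools, by 2.15, 2.02 and 1.81 times on the linear scale. Drp2, Gjc3, Nfasc and Gjb1 had negative log2 fold changes and did not pass. The 3 calls out of 7 stand beside 0.328% of all probe sets called lower in KO. At unadjusted p below 0.05, 5 of the 7 were lower, against 7.17% of all probe sets. In 7 of 7 genes both KO pools lay below all WT pools, an arrangement found in 13.3% of all probe sets. The 7 genes had a median log2 fold change of -0.71, against -0.0017 over all probe sets. Under median centring, quantile normalisation or a fit without moderation 0 of the 7 were called. These genes were picked with earlier results of these data known, and the table leaves out genes with little spread between pools, so such counts describe the genes and are not independent support.

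**Figure D1:**
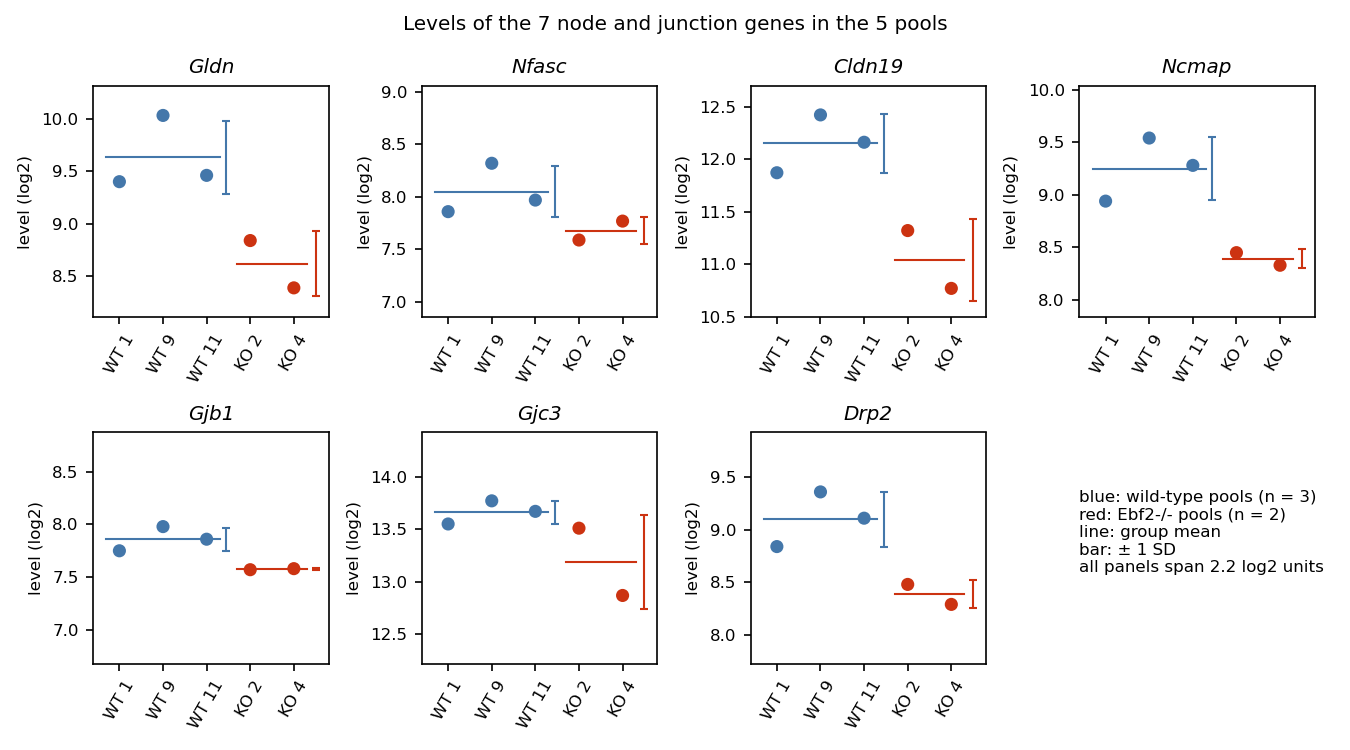
Level (log2, vertical axis) of each of the 7 genes in WT pools 1, 9 and 11 (blue) and KO pools 2 and 4 (red); lines are group means and bars are 1 SD. Both KO pools lie below all WT pools in every panel, by a gap from 0.04 for Gjc3 to 0.57 for Gldn, and WT pool 9 is the highest point in each.

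The promoter windows of the 3 called genes and of the fourth Gjb1 start are shown, the last because it held a pair of SOX matches. Each is the 250 bases before a RefSeq transcription start (GRCm38.p6), 5′ to 3′ on the strand of the gene, with matches to a SOX motif in capitals. The windows are chr9:54286236-54286485 on the + strand for Gldn, chr4:119255191-119255440 on the + strand for the first Cldn19 start, chr4:135398228-135398477 on the - strand for the first Ncmap start, and chrX:101383482-101383731 on the + strand for the fourth Gjb1 start.
Gldn: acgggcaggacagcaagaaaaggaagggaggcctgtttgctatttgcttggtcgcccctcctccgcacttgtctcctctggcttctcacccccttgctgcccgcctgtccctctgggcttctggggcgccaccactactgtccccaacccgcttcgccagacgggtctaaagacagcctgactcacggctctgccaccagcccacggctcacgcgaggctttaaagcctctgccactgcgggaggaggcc
Cldn19: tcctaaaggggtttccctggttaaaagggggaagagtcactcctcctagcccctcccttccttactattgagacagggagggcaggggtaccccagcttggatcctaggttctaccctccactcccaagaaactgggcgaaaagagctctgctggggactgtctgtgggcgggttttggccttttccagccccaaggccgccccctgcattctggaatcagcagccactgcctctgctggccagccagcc
Ncmap: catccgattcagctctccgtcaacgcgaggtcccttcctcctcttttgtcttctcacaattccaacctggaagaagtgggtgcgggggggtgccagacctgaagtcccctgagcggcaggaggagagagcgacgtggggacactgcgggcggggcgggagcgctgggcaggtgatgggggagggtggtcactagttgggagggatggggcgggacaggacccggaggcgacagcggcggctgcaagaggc
Gjb1: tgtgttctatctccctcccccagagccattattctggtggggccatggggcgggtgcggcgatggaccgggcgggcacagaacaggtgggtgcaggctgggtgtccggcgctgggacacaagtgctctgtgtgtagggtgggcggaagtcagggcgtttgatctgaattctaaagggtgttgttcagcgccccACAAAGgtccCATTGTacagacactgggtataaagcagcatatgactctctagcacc

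The table of promoters held 12 windows for 6 of the 7 genes, each of 300 bases with 50 of them after the start. The windows of the Cldn19 starts overlap, and Drp2 was not matched. Motifs were searched on both strands, and matches of different motifs did not overlap in these windows. The SOX motif (ACAAAG or ACAATG), bound by Sox10 and its relatives, was in 2 of the 12 windows, both of Gjb1, and in 28.6% of all 32851 windows. At the fourth Gjb1 start it occurred at 57 and again at 47 bases before the start. The EBF motif (CCCNNGGG), the half-site pair that early B cell factors bind, was in 1 of the 12 windows and in 13.7% of all windows. That match lay 21 bases after the second Gjb1 start. The EGR motif (GCGTGGGNG), bound by Egr2 and its relatives, was in 0 of the 12 windows and in 1.9% of all windows. The shown windows of Gldn, Cldn19 and Ncmap held 0 matches to any of the motifs. With their 50 bases after the start, they were rich in G and C, at 65.0% for Gldn, 59.3% for Cldn19 and 67.7% for Ncmap, against a median of 52.7% over all windows. CpG dinucleotides numbered 17 in the Gldn window and 22 in the Ncmap window but 4 in that of Cldn19, against a median of 7. A match is a run of letters and not a measured site, and these data hold no measurement of binding.

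The node and the paranode are represented by Gldn and Nfasc. Gldn encodes gliomedin, a ligand that Schwann cell microvilli secrete and that clusters sodium channels at the forming node. It read 9.40, 10.03 and 9.46 in WT and 8.84 and 8.39 in KO. WT pool 9 was the high sample and pools 1 and 11 lay close together, while the groups did not overlap. The WT mean was 9.63 ± 0.35 (SD, n = 3) and the KO mean 8.62 ± 0.31 (SD, n = 2), a log2 fold change of -1.02 (SE 0.20, 95% interval -1.44 to -0.60, adjusted p = 0.0213). Without WT pool 9 the log2 fold change was -0.82 (adjusted p = 0.831). The Gldn call was also lost without WT pool 1 (0.132), KO pool 2 (0.163) or KO pool 4 (0.782, log2 fold change -0.80).

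Nfasc encodes the neurofascins, of which the glial form sits at the paranode and the axonal form at the node, where it binds gliomedin. The 1 probe set carries the gene's symbol and does not tell these forms apart here. Nfasc read 7.86, 8.32 and 7.97 in WT and 7.59 and 7.77 in KO. KO pool 4 was the higher of the KO pools and lay 0.09 below WT pool 1. The log2 fold change was -0.37 (SE 0.18, 95% interval -0.75 to 0.0039) and did not pass (adjusted p = 0.353). It was -0.23 without WT pool 9 and -0.18 against WT pool 1 alone. After each array was centred on Schwann lineage genes, the KO pools no longer lay below all WT pools for Nfasc.

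Cldn19 and Ncmap stand for the seams of noncompact myelin. Cldn19 encodes claudin 19, the tight junction strand protein of Schwann cells at incisures and paranodal loops. Its levels were 11.87, 12.42 and 12.16 in WT and 11.32 and 10.77 in KO. KO pool 4 was the lowest, 0.55 below KO pool 2, and the higher KO pool was itself 0.55 below the lowest WT pool. With means of 12.15 ± 0.28 (SD, n = 3) and 11.04 ± 0.39 (SD, n = 2), the log2 fold change was -1.11 (SE 0.20, 95% interval -1.52 to -0.69, adjusted p = 0.0111). This was the largest difference of the 7 genes, and it was -0.83 without KO pool 4 and -0.82 against WT pool 1 alone, without a call in either. The Cldn19 call was also lost without WT pool 1 (adjusted p = 0.0951), WT pool 9 (unadjusted p = 0.0032, adjusted p = 0.831) or KO pool 2 (log2 fold change -1.38).

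Ncmap encodes a small membrane protein of noncompact peripheral myelin. It read 8.94, 9.54 and 9.28 in WT and 8.45 and 8.33 in KO. The KO pools differed from each other by 0.12, while the WT pools spread over 0.60. The means were 9.25 ± 0.30 (SD, n = 3) and 8.39 ± 0.09 (SD, n = 2), with a log2 fold change of -0.86 (SE 0.19, 95% interval -1.25 to -0.47, adjusted p = 0.0356). Without KO pool 4 the value was -0.80, so for Ncmap the KO pools gave like differences. The call was still lost with any pool left out. Adjusted p was 0.0703 without WT pool 11 and 0.831 without WT pool 9 (unadjusted p = 0.00535). Against WT pool 1 alone the log2 fold change was -0.55, over 1.5 times smaller than with all WT pools.

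The log2 fold changes of the gap junction genes were closer to 0 than those of Cldn19 and Gldn, a contrast that was not tested. Of the gap junction genes, Gjb1 lay below every array median (8.93 to 9.11). Gjc3, at 12.87 to 13.77, lay near the upper end of all values. The part of these levels in the contrast was not tested, so it does not show that gap junction genes were less affected. Gjb1 encodes connexin 32, which forms channels between the layers of noncompact myelin and is mutated in X-linked Charcot-Marie-Tooth disease. It read 7.75, 7.98 and 7.86 in WT and 7.57 and 7.58 in KO. All 5 values lay within a narrow band and the groups were 0.17 apart. The log2 fold change was -0.29 (SE 0.17, 95% interval -0.64 to 0.06) and did not pass (adjusted p = 0.442), with -0.18 against WT pool 1 alone. The interval reaches from 1.56 times lower in KO to slightly higher in KO, so a small fall in Gjb1 was not told from no change.

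Gjc3 encodes connexin 29, which Schwann cells place next to the axon and at incisures. It read 13.55, 13.77 and 13.67 in WT and 13.51 and 12.87 in KO. KO pool 2 lay only 0.04 below WT pool 1, and KO pool 4 alone was clearly lower. The log2 fold change was -0.48 (SE 0.19, 95% interval -0.87 to -0.08, adjusted p = 0.247) and did not pass, with -0.16 without KO pool 4 and -0.80 without KO pool 2. Of the 9 measured genes of the Schwann lineage, 6 were lower in KO pool 4 than in KO pool 2 and 3 were higher. Erbb3, the neuregulin receptor of Schwann cells, went from 12.53 in KO pool 2 to 11.90 in KO pool 4. Cdh19, a cadherin of the lineage, went from 11.95 to 11.22, and Sox10 from 11.64 to 11.24. Foxd3 (10.77 and 10.72) and Sox2 (11.69 and 11.62) were nearly level, and Dhh (11.30 and 11.47) and Gfra3 (9.46 and 9.69) were higher in KO pool 4. Relative to the mean of the Schwann lineage genes, the log2 fold change of Gjc3 was -0.35.

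Drp2 encodes a dystrophin-related protein that joins periaxin to dystroglycan in the patches where the sheath touches its outer membrane. It read 8.84, 9.36 and 9.11 in WT and 8.48 and 8.29 in KO. The groups were 0.35 apart, and the KO pools differed by 0.19. The log2 fold change of -0.71 (SE 0.18, 95% interval -1.09 to -0.33) just missed the threshold (adjusted p = 0.0702). It was called with a robust prior (adjusted p = 0.0227) and was -0.45 against WT pool 1 alone, over 1.5 times smaller. Gjb1 and Drp2 are X-linked, and the pools differed in sex-linked genes. Xist, the RNA of the inactive X, read 13.11, 12.69 and 12.58 in WT and 12.04 and 12.54 in KO, and the Y-linked gene Uty read 5.76, 8.33 and 7.95 against 9.14 and 7.65. The part of the sex of the pups in the Gjb1 and Drp2 values was not tested.

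**Figure D2:**
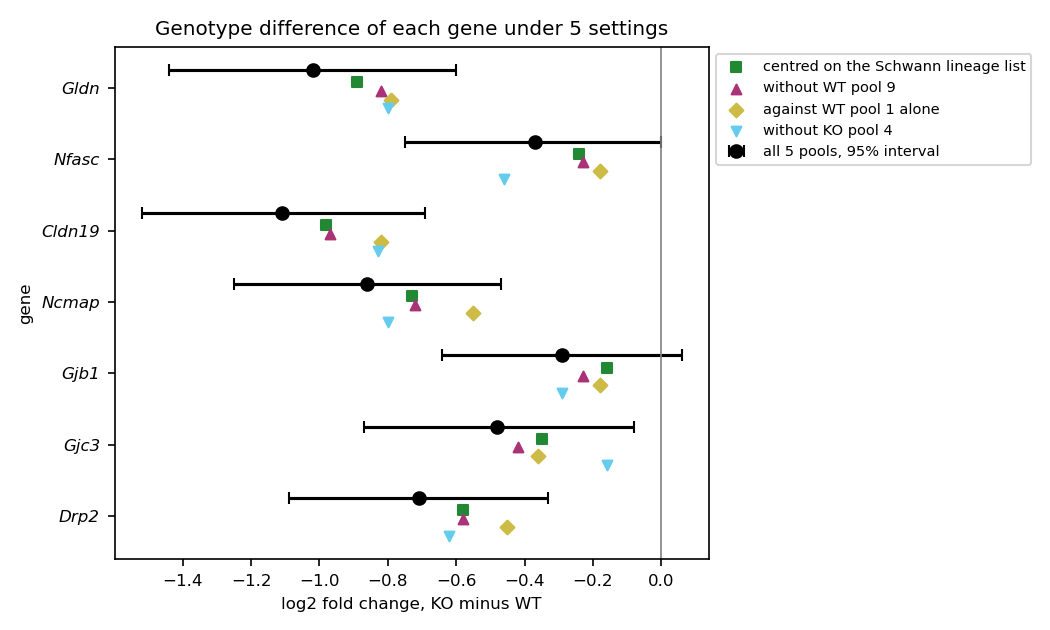
Log2 fold change (horizontal axis, KO minus WT) of each gene, with its 95% interval from all 5 pools (black), after centring on the Schwann lineage list (green), without WT pool 9 (purple), against WT pool 1 alone (yellow) and without KO pool 4 (light blue). All points are negative, and the intervals of Nfasc and Gjb1 reach past 0.

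The genes differed in how alike their profiles were. After each gene was centred on its own mean, the root mean square difference over the 5 pools was 0.079 between Ncmap and Drp2, 0.110 between Nfasc and Gjb1 and 0.116 between Gldn and Cldn19. Profiles were not scaled, so this difference takes in the size of the changes as well as their shape. Gjc3 was nearest to Drp2, at 0.208, and the largest difference was 0.449, between Cldn19 and Gjb1. All 7 genes shared the same order among the WT pools at both ends, with pool 9 highest and pool 1 lowest. Pool 9 was the highest of the 5 pools in 26.8% of all probe sets, and pool 1 the lowest of the WT pools in 34.1%. KO pool 4 was the lowest pool in 5 of the 7 genes, all but Nfasc and Gjb1, against 31.8% of all probe sets.

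Outside the 7 genes, the profile nearest to the mean of the 3 called genes was that of Elovl7, an enzyme that lengthens fatty acids, with a root mean square difference of 0.059 over the 5 pools. Mag, the myelin-associated glycoprotein of the inner myelin membrane, was next at 0.064, followed by the kinesin gene Kif19a at 0.106, Armcx3 at 0.110, and Fa2h, for a fatty acid hydroxylase of myelin lipids, at 0.111. Hid1 and the adaptor gene Shc4 were each at 0.117, Rit2, a small GTPase, at 0.121, and the small RNA genes Rnu3a and Snord118 each at 0.123. Mag was also the nearest gene to Gldn (0.092), ahead of Rit2 (0.103) and Rnu3a (0.106). Mblac2 (0.096), Rasgef1a (0.108) and Armcx3 (0.109) were nearest to Cldn19. Emid1 (0.059), Mpp6 (0.066, on the dimmer of its probe sets) and Fa2h (0.078) were nearest to Ncmap. Mpp6 encodes a scaffold protein that, like Ncmap, is found in noncompact myelin. Genes were picked here by their values, so their own fold changes are not given as results.

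Few other measured genes of the same structures passed the test. Of all 10361 probe sets only 70 were called in either direction. A count of 0 in lists this small is therefore no result about these structures. Of 19 further genes fixed for the node and the microvilli, 6 were measured and 0 passed, with 4 lower and 2 higher (median log2 fold change -0.15). Ezr, for ezrin of the microvilli, was at -0.28 (SE 0.17), Scn3b, a sodium channel beta subunit, at -0.40 (SE 0.20), and Vcan, for versican of the nodal matrix, at 0.46 (SE 0.18). Scn3b was at -0.18 without WT pool 11, and against WT pool 1 alone Scn3b was at -0.11 and Vcan at 0.22. Of 7 further paranode genes 6 were measured and 0 passed, 2 lower and 4 higher (median 0.12). Cntn1 and Cntnap1, for contactin and Caspr, the axonal partners of glial neurofascin, were at 0.28 (SE 0.18) and -0.27 (SE 0.18). Epb41l3, for a scaffold protein of the paranode, was at 0.20 (SE 0.17). Cntnap1 is made by neurons, whose cell bodies lie outside the nerve.

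In the list of the juxtaparanode and internode, 9 of 14 genes were measured, 1 fell and 8 did not pass (median -0.20). The 1 that fell was Mag, from 11.38, 11.94 and 11.51 in WT to 10.72 and 10.52 in KO, a difference of -0.99 (SE 0.19, adjusted p = 0.0166). Lgi4, a secreted ligand that Schwann cells need for timely myelination, was at -0.30 (SE 0.17), its receptor gene Adam22 at 0.34 (SE 0.18), and Cntnap2, for Caspr2, at -0.25 (SE 0.20), though 0.09 against WT pool 1 alone.

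For junctions and polarity, 12 of 25 further genes were measured and 0 passed, with 3 lower and 9 higher (median 0.10). Cdh1, for E-cadherin of the adherens junctions of noncompact myelin, was at -0.68 (SE 0.19, adjusted p = 0.0946), with 9.59, 10.01 and 9.54 in WT and 9.23 and 8.83 in KO. Mpp6 was at -0.55 (SE 0.17, adjusted p = 0.140) on the brighter of its probe sets. The other (-0.75, SE 0.18) is the probe set placed near Ncmap above by its values, so it is no independent support. At the upper end was Cldn1, a claudin of the perineurium, at 0.64 (SE 0.20, adjusted p = 0.133), with 0.29 against WT pool 1 alone. Cdh1 was called with a robust prior and above the 50th percentile, Mpp6 above the 50th percentile, and Cldn1 with an intensity trend and above the 50th percentile. E-cadherin is also made by the epidermis, and the mean of the keratinocyte genes was 9.02 in WT pool 9 and 8.47 in WT pool 11, against 7.32 to 7.64 in the other pools. Its part in the Cdh1 values was not tested.

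In the families of the junction proteins, 9 of 18 other connexin genes were measured with 0 called, 6 lower and 3 higher (median -0.02), and 9 of 27 other claudin genes with 0 called, 4 lower and 5 higher (median 0.01). Among connexins the largest differences were those of Gja1 (connexin 43, -0.57, SE 0.22), Gjc1 (0.37, SE 0.18) and Gja4 (a connexin of endothelium, 0.23, SE 0.20). Gja1 read 9.98, 10.09 and 9.86 in WT and 9.90 and 8.92 in KO, so its difference came from KO pool 4. Gja4 turned to -0.17 against WT pool 1 alone. Among claudins, Cldn1 was followed by Cldn3 at 0.22 (SE 0.18) and Cldn11, the claudin of central myelin, at -0.21 (SE 0.19).

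Around Drp2, 10 of 31 further genes of the dystroglycan complex, its sugar-adding enzymes and the laminin receptors were measured and 0 passed, with 5 lower and 5 higher (median -0.01). Pomgnt1, an enzyme that adds sugars to dystroglycan, was at -0.46 (SE 0.18), Lama5, a laminin chain, at 0.35 (SE 0.18) and Sgcd, a sarcoglycan, at 0.34 (SE 0.17). Prx and Dag1, the partners of Drp2, are not analysed here. Of 7 compact myelin genes 3 were measured, 1 of which fell: Pmp2, which binds fatty acids in peripheral myelin, at -2.14 (SE 0.29, adjusted p = 0.000407), beside Mbp at -0.24 (SE 0.17) and Cnp at -0.23 (SE 0.17). Of 13 promyelinating factors 8 were measured and 1 fell, Egr2, which is required for peripheral myelination (-1.13, SE 0.22, adjusted p = 0.0181). With KO pool 4 left out, Pmp2 was at -1.42 and Egr2 at -0.65, over 1.5 times smaller. The calls of Mag, Pmp2 and Egr2 were each lost without WT pool 1, WT pool 9, KO pool 2 or KO pool 4, and those of Pmp2 (adjusted p = 0.301) and Egr2 (0.0661) with a robust prior. Pou3f2, Pou3f1 and Nab2, all of which act in the same programme, were at -0.51, -0.43 and -0.32 (SE 0.18 each), and none passed. Without KO pool 4 they were at -0.31, -0.19 and -0.11.

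**Figure D3:**
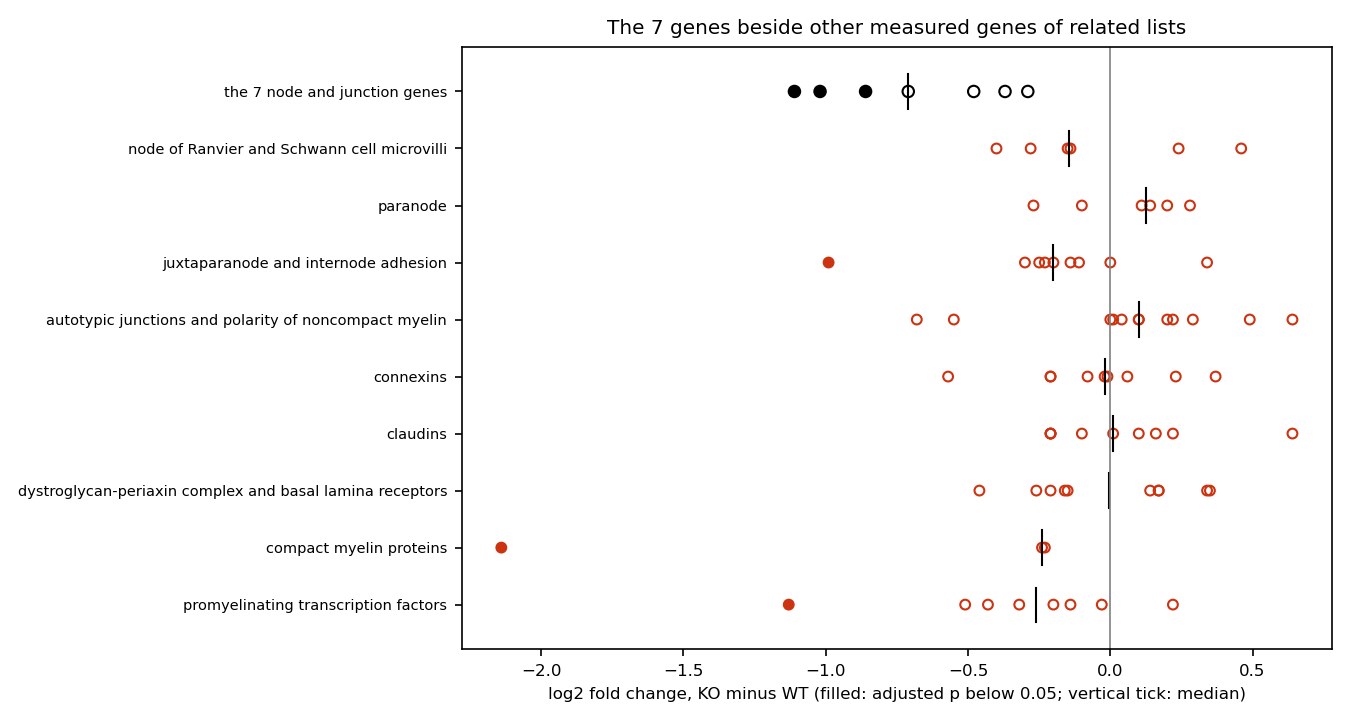
Log2 fold change (horizontal axis, KO minus WT) of the 7 genes (black, top row) and of the other measured genes of 9 lists (red), with filled points for adjusted p below 0.05 and a vertical tick at each median. The 7 genes have a median of -0.71, and the 9 lists have medians from -0.26 to 0.12.

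The pools also differed in the cells they held, as far as marker genes show it. In bulk tissue, fewer Schwann cells and less RNA per Schwann cell cannot be told apart. Sox10, which defines the lineage, read 11.65, 11.63 and 11.65 in WT and 11.64 and 11.24 in KO, so KO pool 4 alone was lower. Of 17 Schwann lineage genes 9 were measured and 0 called. Their mean was 10.74, 10.86 and 10.68 in WT and 10.72 and 10.55 in KO. Of the 9 genes 5 were lower and 4 higher in KO, from -0.56 for Cdh19 to 0.47 for Gfra3. Fabp7 alone read 10.23, 11.05 and 9.39 in WT, so that mean is a rough gauge of Schwann cell content. With each pool's level taken relative to that mean, the log2 fold changes were -0.98 for Cldn19, -0.89 for Gldn, -0.73 for Ncmap, -0.58 for Drp2, -0.35 for Gjc3, -0.24 for Nfasc and -0.16 for Gjb1. The KO pools then lay below all WT pools in 5 of the 7 genes, all but Nfasc and Gjb1. How many of all probe sets did so after this centring was not counted. The 5 of 7 therefore stands without a background. Of the 7 genes 0 were called (adjusted p = 0.112 for Cldn19, 0.123 for Gldn and 0.170 for Ncmap). At unadjusted p below 0.05 there were 4, all lower in KO, beside 1474 of all 10361 probe sets in either direction.

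WT pool 9, the highest pool for each of the 7 genes, also stood apart in genes of neurons. The 13 measured of 15 neuron and axon genes averaged 9.29 there, against 8.16 and 8.19 for the other WT pools and 8.20 and 8.39 for the KO pools. Scn10a, a sodium channel of sensory neurons, read 9.05 in WT pool 9 and 6.38 to 6.82 elsewhere. Skin and muscle genes were high in WT pools 9 and 11. The 15 keratinocyte genes averaged 7.32, 9.02 and 8.47 in WT and 7.38 and 7.64 in KO, and the 30 skeletal muscle genes 9.28, 10.53 and 10.41 against 9.70 and 9.94. Against WT pool 1 alone, which was low in both lists, the log2 fold changes were -0.82 for Cldn19, -0.79 for Gldn, -0.55 for Ncmap, -0.45 for Drp2, -0.36 for Gjc3 and -0.18 for both Nfasc and Gjb1, with 0 called and 1 at unadjusted p below 0.05. WT pool 1 was also the lowest pool for Uty (5.76, against 9.14 and 7.65 in KO) and the highest for Xist (13.11, against 12.04 and 12.54). The part of the neuron, skin and muscle RNA, and of the sex of the pups, in the values of the 7 genes was not tested.

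Most measured genes of the perineurium, of fibroblasts and of endothelium had positive log2 fold changes, while immune genes were split. The 9 perineurium genes averaged 10.47, 10.08 and 10.31 in WT and 10.60 and 10.72 in KO, with 8 of 9 higher in KO. The 8 fibroblast genes averaged 11.37, 11.09 and 11.15 against 11.55 and 11.57, with 8 of 8 higher, and of the 18 endothelial genes 17 were higher, at 10.43, 10.04 and 9.98 against 10.62 and 10.38, so KO pool 4 lay below WT pool 1. The 9 immune genes averaged 9.54 to 9.66 in WT and 9.56 to 9.77 in KO, with 4 lower and 5 higher. In these lists 1 gene was called, the perineurial gene Moxd1, at 1.62 (SE 0.20, adjusted p = 0.000122). The part of these cells in the values of the 7 genes was not tested. The WT mean of Ebf2 itself was 11.36 ± 0.21 (SD, n = 3) and its KO mean 9.00 ± 0.35 (SD, n = 2), a log2 fold change of -2.37 (adjusted p = 4.97e-07), and each array lay on the side of its label.

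**Figure D4:**
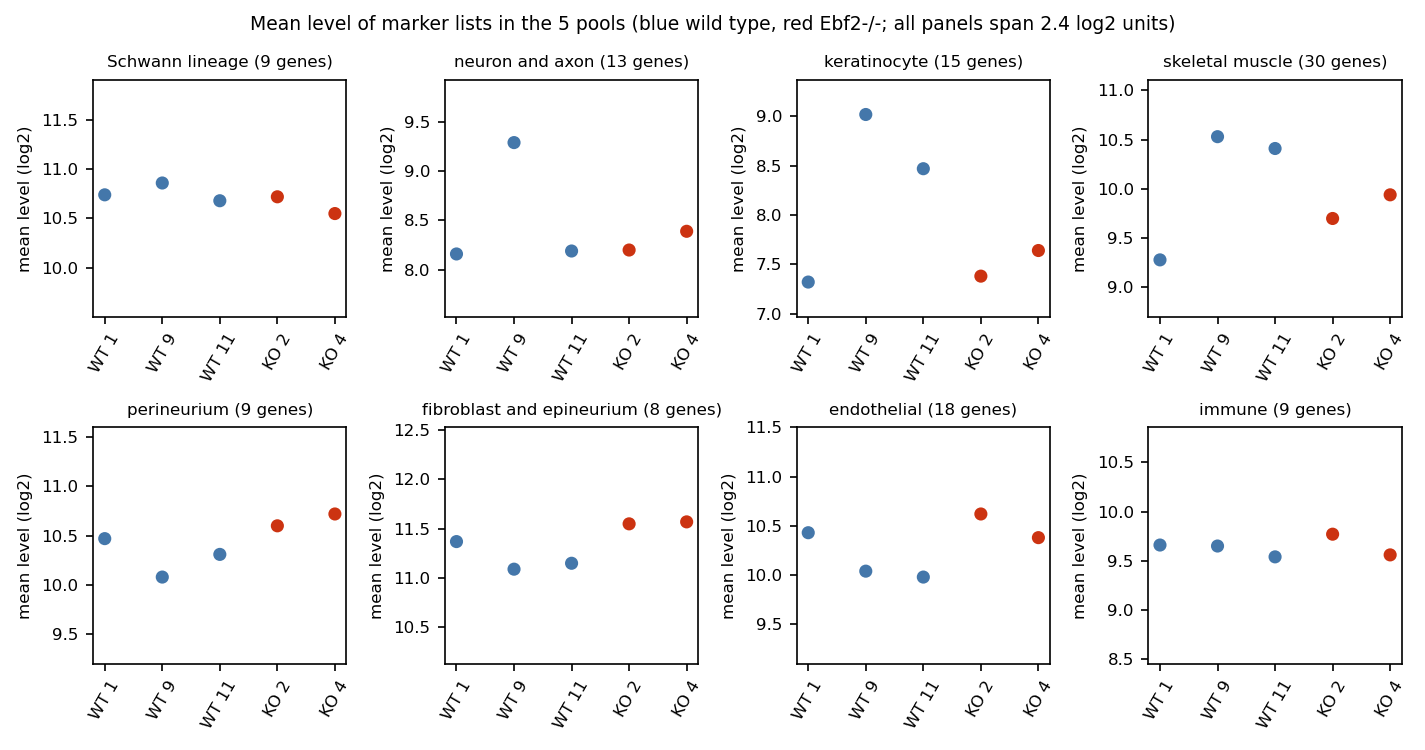
Mean level (log2, vertical axis) of the measured genes of 8 marker lists in WT pools 1, 9 and 11 (blue) and KO pools 2 and 4 (red). Neuron genes stand out in WT pool 9 (9.29), keratinocyte and muscle genes in WT pools 9 and 11, and the Schwann lineage mean stays between 10.55 and 10.86.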

How the data were processed

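Total RNA of 5 pools of 12 sciatic nerves each was hybridised to 5 Affymetrix arrays, per the labels. The deposited values are log2 expression values from RMA according to the submitters' processing notes, with no version or settings stated. The table held 10361 probe sets with values from 2.84 to 14.3. Array medians were 8.93 to 9.11, lowest in KO pool 4. The gap from the lowest value of a probe set to its fourth-ranked value was never under 0.175, so genes with little spread are not analysed here. The number of arrays limits the precision.

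Names came from GEO's annotation of the platform, with 1 symbol for 9411, several for 384 and none listed for 566. Lists were matched by symbol and RefSeq gene identifier, and 1 listed gene, Cldn26, is called Tmem114 in that annotation. A gene with several probe sets was represented by the brightest.

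Genotypes were compared with limma 3.58.1 in R 4.3.3 (lmFit and eBayes, no covariates, two-sided, Benjamini-Hochberg over all probe sets), with 3 residual and 17.4 prior degrees of freedom. The fit was tested on data simulated under its own variance model, which does not show how well that model suits these arrays. In 15 alternatives, scaling, prior, filter and pools were changed 1 at a time. The genes and lists were chosen with earlier results of these data known. Every one of the 7 genes is named. Of each related list the genes called are named and, of the rest, the 3 with the largest absolute log2 fold change. Likeness names the nearest 3 genes to each called gene and the nearest 10 to their mean. Promoter windows are from RefSeq, GRCm38.p6. Coordinates are those of these windows, not of probes.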

Additional observations from a re-analysis of the deposited data

How the results depend on the processing

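The 7 log2 fold changes stayed negative in each of the 15 alternatives where the gene was tested (Nfasc, Ncmap, Gjb1 and Drp2 lay under the filter above the 50th percentile). Only the changes of scaling could have turned a sign. A change of prior or filter leaves the fold change as it is. With both KO pools below all WT pools in each gene, leaving out pools keeps it negative. The calls did not hold in all alternatives. Of the 7 genes 3 were called, 3 with an intensity trend in the prior or a filter above the 25th percentile, 2 above the 50th, 4 with a robust prior, and 0 with median centring, quantile normalisation, centring on the Schwann lineage list, no moderation, or WT pool 1 alone in either form. Leaving out 1 pool gave 0 to 2. The count of all called probe sets was 70, and 1 with median centring and with quantile normalisation, 12 with the Schwann lineage centring, 158 with the trend, 148 with the robust prior, 287 above the 50th percentile, and 0 with no moderation (498 at unadjusted p below 0.05) and against WT pool 1 alone (127, or 286 with pools 9 and 11 as a group of their own). Leaving out 1 pool gave 0 to 105. Both filters left fewer probe sets to test and the prior was estimated anew on them, and 64 were called above the 25th percentile. The cause of these moves was not tested.

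Where the call was lost, Gldn was at -0.96 with median centring, -0.99 with quantile normalisation, -0.89 with Schwann lineage centring, -1.02 with no moderation, -0.79 against WT pool 1 alone in both forms, and -1.24 to -0.80 with 1 pool left out. Cldn19 was at -1.05, -1.16, -0.98, -1.11, -0.82 and -1.38 to -0.83 in the same order, and Ncmap at -0.80, -0.81, -0.73, -0.86, -0.55 and -1.01 to -0.72. With 1 pool left out, the call of Gldn and Cldn19 held only without WT pool 11, and that of Ncmap in none of the 5 (lowest adjusted p = 0.0703). Drp2, at -0.71, was called with the robust prior. Other named genes gained or lost calls too. Cdh1 was called with the robust prior (adjusted p = 0.0354) and above the 50th percentile (0.024), Cldn1, higher in KO, with the trend (0.0369) and above the 50th percentile (0.0382), and Mpp6 above the 50th percentile (0.0499), while Pmp2 (0.301) and Egr2 (0.0661) lost theirs with the robust prior. With a KO pool left out, the lone KO pool is assumed to vary like the WT pools. Of the other named genes, Cntnap2 turned to 0.09 against WT pool 1 alone in both forms, and Gja4 to -0.17 there, with -0.01 (without KO pool 2) to 0.46 when 1 pool was left out. No paired analysis was made because the labels state no pairing between pools.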
